A study of Rattus norvegicus with 6 samples.

Results

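Transcripts of 8 complement genes were followed in single-cell RNA sequencing of rat pancreas. The genes were chosen by name, with no value in the rule, and make up 8 of the 32883 genes in the count matrices. They were C1qa, C1qb and C1qc (the 3 chains of C1q), C1s, Serping1, C3, Cfd and C7. All 6 rats were male Wistar rats, 2 per group. Young rats were 2 months old and were taken at baseline, before the diets were assigned. Old rats were 20 months old after 18 months of a normal diet, and HFHF-old rats were 20 months old after 18 months of a high-fat high-fructose (HFHF) diet. Old rats were compared with young rats for age and HFHF-old with old rats for diet, so both comparisons share the old rats. Each rat gave 1 library from pancreas digested with collagenase and passed over a density gradient, so the cells are those that came through this isolation and the rat is the replicate.

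Complement is a set of proteins that act in sequence. C1q binds to antibody or to altered cell surfaces, C1s cuts the next components, and the C1 inhibitor encoded by Serping1 stops C1s. C3 is the component on which the routes of activation meet, factor D (Cfd) is the protease of the alternative pathway, and C7 belongs to the terminal complex that inserts into membranes. The liver makes most of the C3 of plasma, while tissue macrophages are a known source of C1q.

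The libraries held 77387928 to 166875258 counts of unique molecular identifiers (UMIs) in 7617 to 17724 barcodes, and 75201 of 78024 barcodes were kept. Levels are given as CPM, the UMIs of a gene per 1000000 UMIs of the class in 1 rat. Libraries of this kind count 1 tag per transcript end, so levels were not scaled by gene length. Whether different genes were captured alike was not tested, so comparisons between genes are of UMI counts only. HFHF-old replicate 2 stood apart. It had 7866 NK-like cells and 60 macrophage-like cells, and only the Clec7a/Olr1 subset of macrophages held more than 1 of its cells, 58 in number. Values for the Lyve1/Fcna and Ccl24 macrophages of HFHF-old rats therefore come from replicate 1 alone. In the first clustering the macrophage-like clusters held 7, 3, 1 and 0 cells of replicate 2. Most of its 60 macrophage-like cells were thus first named neutrophil-like or dendritic-like and renamed in a second clustering. Mesothelial-like cells were few, 13 to 33 in the 4 rats used, and ductal-like cells numbered 16 to 245 in 5 rats. Across the 6 libraries, 584 barcode sequences occurred in 2 or more.

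The classes carried their markers. Summed over 7 macrophage markers such as Csf1r and Mrc1, the Lyve1/Fcna macrophages had 6859 to 9878 CPM, and summed over 7 fibroblast markers such as Col1a1 and Dcn, fibroblast-like cells had 13250 to 38150. Acinar markers (2253 to 7687 CPM) and endocrine markers (3445 to 11910 CPM) were present in the Lyve1/Fcna sums as well. Mesothelial markers such as Msln and Wt1 summed to 3147 to 3810 in mesothelial-like cells, and ductal markers such as Krt19 and Sox9 summed to 3343 to 5302 in ductal-like cells. The macrophage subsets were set by Lyve1 and Fcna against Clec7a and Olr1. The subset between these extremes is called Ccl24 macrophages, although Ccl24 itself had a median of 1095 CPM in the Lyve1/Fcna subset, 519.9 in the Ccl24 subset and 68.52 in the Clec7a/Olr1 subset. A small class named adipocyte-like held fibroblast markers at 3055 to 12440 CPM and adipocyte markers at 3.586 to 404.3 CPM, so its name is weak. Fibroblasts were divided into Spon1/Inmt, Pi16/Clec3b and Gfpt2/Tnfrsf11b/Sema3c subsets, the last of which passed gradually into the second. The second is not set apart from the last by its own name genes. Pi16 had a median of 3118 CPM in the second and 3211 in the last, and Clec3b 839.1 and 880.5. Gfpt2 (1488 and 2347), Tnfrsf11b (949.9 and 1219) and Sema3c (1408 and 1860) were lower in the second by median.

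**Figure D1:**
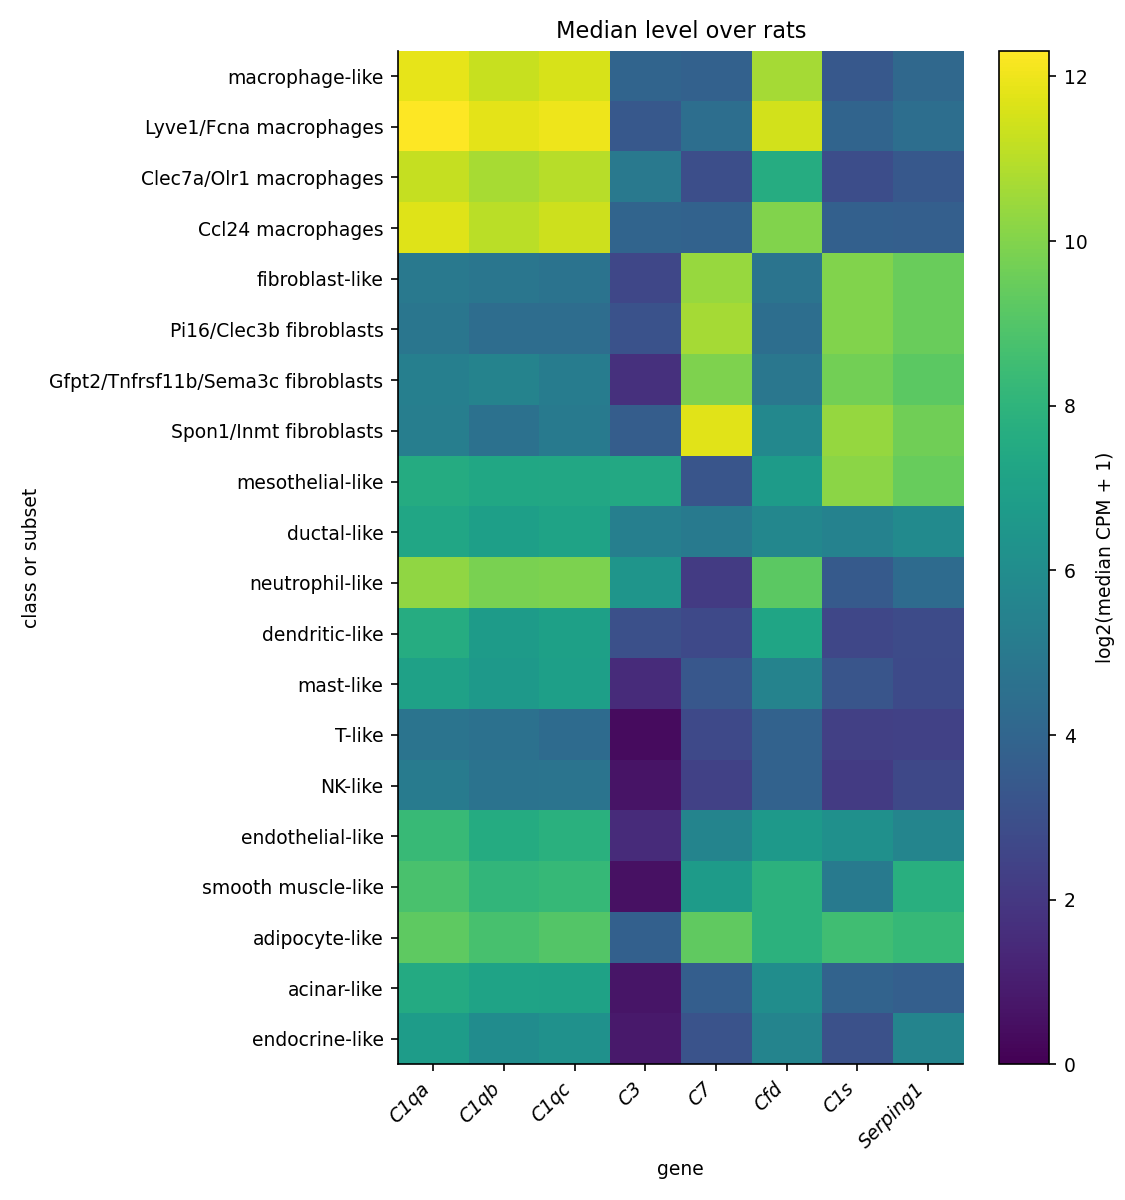
Colour shows log2(median CPM + 1) over the rats with at least 10 cells, for the 8 complement genes (columns) in 20 classes or subsets (rows). The C1q chains are highest in the macrophage subsets, Cfd in the Lyve1/Fcna and Ccl24 subsets, C7 in the fibroblast subsets, C1s and Serping1 in fibroblast subsets and mesothelial-like cells, and C3 in mesothelial-like and neutrophil-like cells.

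The 3 genes of C1q lie side by side in the rat genome. Their promoters are shown because the 3 chains moved together across cell classes in the counts. RefSeq promoter sequences (assembly GRCr8) matched 4 of the 8 genes, C1qa, C1qb, C3 and Cfd, and the 250 bases before the start are given for the 2 C1q genes among them, both on the minus strand, with the letters GGAAGT, or ACTTCC on the other strand, in capitals. GGAAGT holds the core of ETS factor binding sites, such as those of PU.1, a factor of macrophages.
C1qa, chr5:154419934-154420183: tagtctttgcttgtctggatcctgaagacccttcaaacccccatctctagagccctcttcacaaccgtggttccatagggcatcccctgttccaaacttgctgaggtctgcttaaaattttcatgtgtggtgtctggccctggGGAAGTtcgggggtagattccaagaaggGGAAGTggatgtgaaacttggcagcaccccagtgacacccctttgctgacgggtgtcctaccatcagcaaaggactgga
C1qb, chr5:154407828-154408077: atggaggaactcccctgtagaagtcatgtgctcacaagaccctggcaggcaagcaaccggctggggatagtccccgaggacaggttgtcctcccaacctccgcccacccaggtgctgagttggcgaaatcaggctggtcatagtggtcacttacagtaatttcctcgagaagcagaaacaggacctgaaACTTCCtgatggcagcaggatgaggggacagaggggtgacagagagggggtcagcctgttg
These letters occurred 2 times in the C1qa promoter, 1 time in that of C1qb and 0 times in those of Cfd and C3. Of 33469 rat promoters of the same length, 19.22% hold them on either strand, so a match is a description of the sequence only.

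Among the named classes, with ILC2-like cells left out, C1q transcripts were highest in macrophage-like cells in every rat. The macrophage-like class held a median of 76.35% of all C1qa UMIs of a library (range 45.5% to 81.21%), 76.04% of those of C1qb and 76.74% of those of C1qc. Unnamed cells held a median of 11.35% of the C1qa UMIs (range 6.979% to 44.84%), and their level is not ranked here. C1qa stood at 3729 CPM in macrophage-like cells as the median of 6 rats, and the ratio to fibroblast-like cells had a median of 105.9, higher in 6 of 6 rats. It was detected in 90% to 98.12% of macrophage-like cells at median depths of 2746 to 10050 UMIs per cell. In NK-like cells, which should lack it, the share was 0.4831% to 54.23% at median depths of 3404 to 8820, and in fibroblast-like cells 0.2151% to 72.01%. Cells were also thinned to 1000 UMIs, with the 8490 cells under that depth left out, here and below. The shares were then 71.93% to 95% in macrophage-like, 0.06416% to 12.55% in NK-like and 0.1088% to 11.27% in fibroblast-like cells.

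Outside macrophages, C1qa was at similar low levels in fibroblast-like and NK-like cells of the same library. It was 50.7, 28.7, 32.0, 19.0, 104.7 and 0.36 CPM in the 2 young, the 2 old and the 2 HFHF-old rats (replicate 1 first, here and below) in fibroblast-like cells, against 47.8, 33.2, 35.4, 17.2, 123.1 and 0.76 in NK-like cells. Both classes were lowest in HFHF-old replicate 2, the library with few macrophages, and highest in HFHF-old replicate 1, and the fibroblast-like level was the higher one in 2 of 6 rats. C1qa, C1qb and C1qc took 39.22%, 28.62% and 32.16% of the 1012979 C1q UMIs of macrophage-like cells. The pooled shares were 38.67%, 29.58% and 31.74% in mesothelial-like, 38.36%, 28.84% and 32.8% in ductal-like, 38.78%, 32.32% and 28.89% in fibroblast-like and 39.32%, 30.73% and 29.95% in NK-like cells. In the last pair of classes HFHF-old replicate 1 gave most of the UMIs, with 3261 of C1qb against 2770 of C1qc in fibroblast-like and 665 against 581 in NK-like cells, while NK-like C1qc exceeded C1qb in 4 of 6 rats, so no order of these chains is read there. Other classes had higher C1qa levels, with 186.4 to 800.6 CPM in endothelial-like cells of 5 rats and 1.31 in HFHF-old replicate 2, 369.1 to 628.9 in smooth muscle-like cells of 5 rats, and 77.78 to 1614 in neutrophil-like cells. In ductal-like cells it was above the NK-like level in 3 of 5 rats. Whether free RNA or the cells themselves gave these UMIs was not tested, and C1q levels outside macrophages are not read as expression.

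Within macrophages, C1q was highest in the Lyve1/Fcna subset. C1qa was 5025 and 4516 CPM in young, 5085 and 6507 in old and 5851 in HFHF-old replicate 1. In Clec7a/Olr1 macrophages it was 2599 and 2234 in young, 1848 and 3468 in old and 2570 and 2054 in HFHF-old rats. No value of the first subset overlapped with one of the second, and the ratio within a rat had a median of 2.02 (range 1.88 to 2.75, 5 of 5 rats). Ccl24 macrophages lay between, with 3310 and 2409 in young rats, 2640 and 4329 in old rats and 3492 in 1 HFHF-old rat, or 1.27 times the Clec7a/Olr1 level at the median.

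C1qb and C1qc followed the same order of subsets in 5 of 5 rats. C1qb was 3097 and 2499 in young, 3638 and 3976 in old and 4782 CPM in HFHF-old Lyve1/Fcna macrophages. C1qc was 4044 and 3308, 4056 and 4454, and 4821. The ratio of the Lyve1/Fcna to the Clec7a/Olr1 subset had a median of 1.83 for C1qb and 1.84 for C1qc. The chains were not at equal levels, since C1qa exceeded C1qc and C1qc exceeded C1qb in each subset and rat. Their shares of the pooled C1q UMIs varied little between subsets (39.75%, 31.7% and 28.55% in Lyve1/Fcna and 38.02%, 33.32% and 28.66% in Clec7a/Olr1 macrophages).

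Age and diet moved C1q by less than the test could tell from the spread between rats. In Lyve1/Fcna macrophages C1qa averaged 4770 ± 359.6 CPM (SD, n = 2) in young, 5796 ± 1005 (n = 2) in old and 5851 in 1 HFHF-old rat. The log2 fold changes of old over young were 0.33, 0.49 and 0.26 for C1qa, C1qb and C1qc (edgeR quasi-likelihood test, adjusted p = 0.672, 0.473 and 0.728). Those of HFHF-old over old were -0.06, 0.26 and 0.11 (adjusted p = 0.971, 0.810 and 0.931). The young values of this subset were below the old ones for all 3 chains, and the gap did not pass the test. For C1qa (5025 in young replicate 1 against 5085 in old replicate 1) and C1qc (4044 against 4056) it was narrow. How often other genes separate these groups of 2 rats was not counted.

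**Figure D2:**
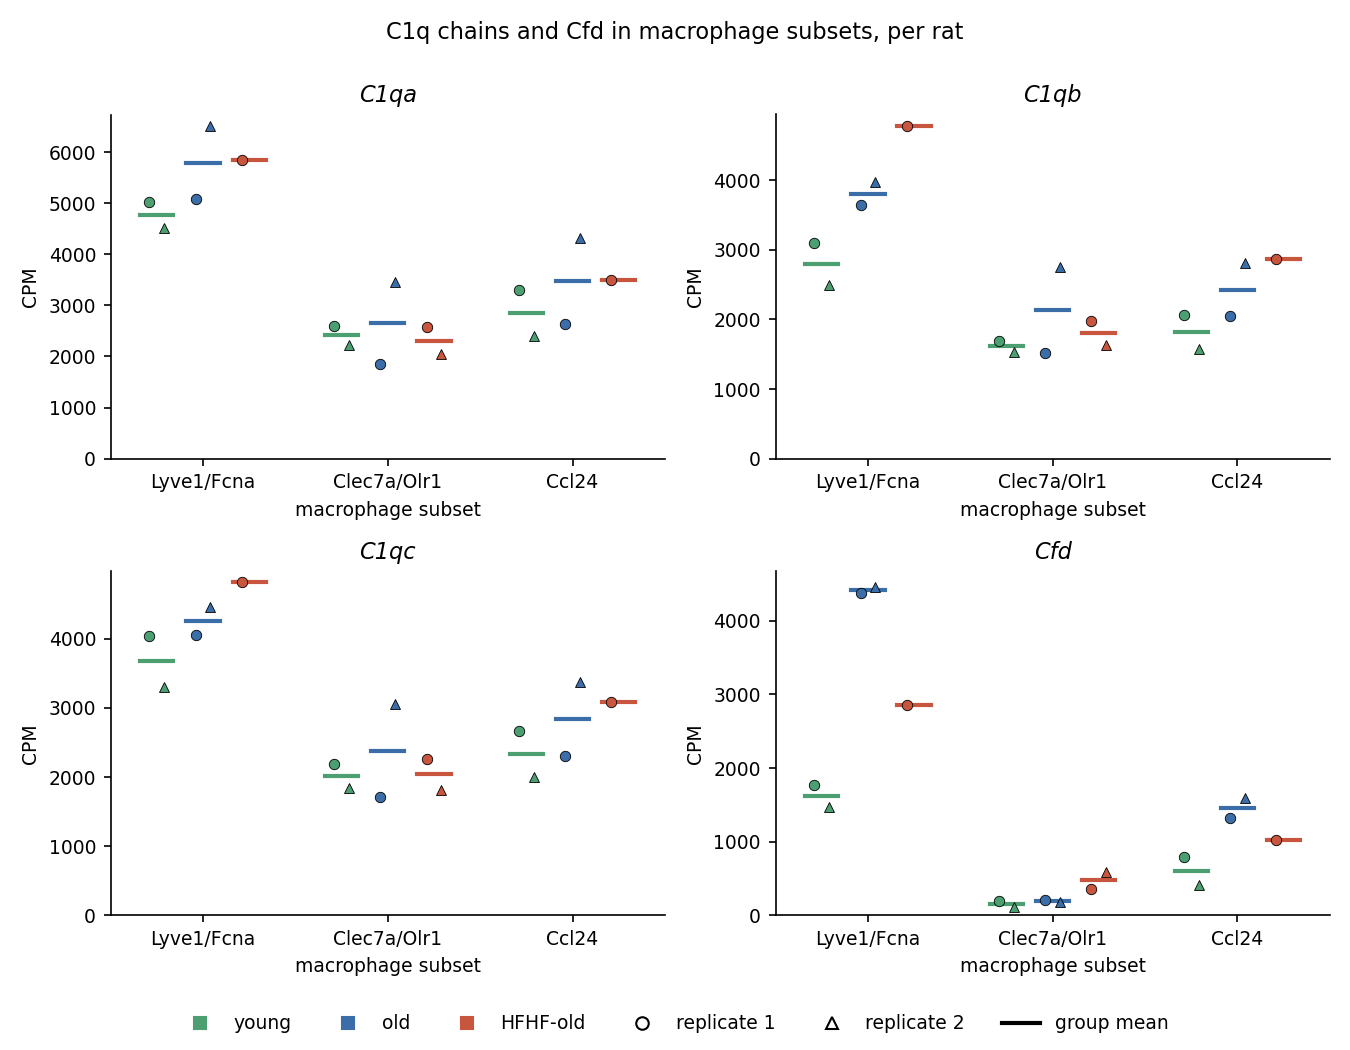
Each panel shows 1 gene (C1qa, C1qb, C1qc, Cfd) in CPM on a linear axis from 0, in the 3 macrophage subsets by group, with circles for replicate 1, triangles for replicate 2 and short lines for group means. The C1q chains step down from Lyve1/Fcna to Clec7a/Olr1 macrophages by a factor near 2, whereas Cfd falls by a median factor of 13.06.

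Cfd, factor D, separated the macrophage subsets most among the 8 genes. In Lyve1/Fcna macrophages it was 1776 and 1467 CPM in young, 4385 and 4457 in old and 2859 in the HFHF-old rat. In Clec7a/Olr1 macrophages it was 190.4 and 112.3, 205.9 and 186.4, and 357.4 and 594. The ratio within a rat ranged from 8 to 23.91 with a median of 13.06, and the 2 subsets did not overlap. Ccl24 macrophages again lay between, from 418.8 in young replicate 2 to 1596 in old replicate 2, at a median of 4.19 times the Clec7a/Olr1 level. Cfd is also known as adipsin, a product of fat cells. Macrophage-like cells held a median of 72.63% of its UMIs (range 38.55% to 79.25%). The 4 adipocyte markers, among them Adipoq and Plin1, summed to 0.813 to 4.591 CPM in Lyve1/Fcna macrophages. In young replicate 1, the library where the adipocyte-like class carried the most adipocyte markers (404.3 CPM), that class had Cfd at 475.2 CPM. In fibroblast-like cells it was 5.14 to 60.82 CPM and in NK-like cells 0.35 to 76.6, and both were highest in HFHF-old replicate 1, as was C1qa in these classes. Neutrophil-like cells had Cfd at 311.1 to 1056 CPM, above the median of 198.1 CPM in Clec7a/Olr1 macrophages, in sums that also held C1qa. Smooth muscle-like cells had 150.3 to 432.1 CPM in 5 rats, higher than the Clec7a/Olr1 macrophages of the same rat in each. The Cfd level of that subset thus did not stand above that of every other class. The smooth muscle-like sums also held C1qa, at 369.1 to 628.9 CPM, and the source of their Cfd UMIs was not tested.

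Cfd was higher in old than in young rats in the Lyve1/Fcna subset, with group means of 1622 ± 218.3 (SD, n = 2) and 4421 ± 50.86 (n = 2), and the 2 groups did not overlap. The log2 fold change was 1.49 ± 0.30 (SE) with an adjusted p of 0.110 (edgeR quasi-likelihood test), and it lay between 1.38 and 1.63 whichever rat was left out. It did not pass the threshold over all genes, and how often other genes separate these 2 groups was not counted. Young and old rats lay in part in different sub-clusters of this subset. Of 1744 cells in one, 1301 and 357 were from the young rats, and of 821 in another, 155 and 545 were from the old rats. The share of Lyve1/Fcna macrophages with a Cfd UMI, with cells thinned to 1000 UMIs, was 64.7% and 54.7% in young, 81.61% and 85.79% in old and 81.07% in the HFHF-old rat. Without thinning it was 79.02% and 75.07%, 88.07% and 82.25%, and 97.07%. The thinned shares leave out cells under 1000 UMIs, with 1253 of 1668 cells kept in old replicate 2. The place of the HFHF-old rat among the 5 thus depends on thinning and this removal together. In NK-like cells of these 5 libraries the unthinned share was 8.114% and 6.03%, 18.06% and 4.11%, and 37.42%, and the thinned share was 1.256% to 7.872%. In Ccl24 macrophages the log2 fold change of Cfd was 1.33 ± 0.38 (adjusted p = 0.353). In Clec7a/Olr1 macrophages it was 0.52 ± 0.32 (adjusted p = 0.677).

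With diet, the Cfd values had opposite signs in the Lyve1/Fcna and Clec7a/Olr1 subsets, and neither passed the test. In Lyve1/Fcna macrophages HFHF-old over old was -0.70 ± 0.36 (SE, adjusted p = 0.484). In Clec7a/Olr1 macrophages it was 1.05 ± 0.32 (adjusted p = 0.25), where both HFHF-old rats lay above all other rats. Without HFHF-old replicate 2, most of whose 58 cells formed a sub-cluster of that library alone, this value was 0.65. Without HFHF-old replicate 1 it was 1.38, and with complement genes not held out of the clustering it turned to -0.39. The difference between subsets was not tested, and how often other genes place both HFHF-old rats highest was not counted.

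In macrophages C3 had wide differences between rats. In macrophage-like cells it was 10.7 and 19.0 CPM in young, 176.6 and 34.1 in old and 6.49 and 7.87 in HFHF-old rats. Both old rats lay above the 4 others, and old replicate 1 was far above old replicate 2. The same held in each subset, and how often other genes set the old rats apart in this way was not counted. In Lyve1/Fcna macrophages C3 was 4.45 and 9.45 in young, 168.5 and 26.0 in old and 2.00 in the HFHF-old rat, from 61, 35, 864, 96 and 43 UMIs. In Clec7a/Olr1 macrophages it was 25.4 and 34.9, 177.1 and 42.2, and 17.1 and 7.92, the last from 3 UMIs. Unlike C1q and Cfd, C3 was lower in the Lyve1/Fcna than in the Clec7a/Olr1 subset in 5 of 5 rats (median ratio 0.27, range 0.12 to 0.95).

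The high C3 of old replicate 1 was found in macrophages more than in lymphocytes of the same library. There, 37.94% of Lyve1/Fcna, 51.04% of Clec7a/Olr1 and 51.27% of Ccl24 macrophages had a C3 UMI. With cells thinned to 1000 UMIs and those under that depth left out, the shares were 12.35%, 14.26% and 17.52%. In NK-like cells of that library the unthinned share was 2.083% and the level 2.31 CPM, and in acinar-like cells the level was 13.75. This acinar-like level was above those of the other 5 rats (0 to 1.58), so C3 was higher in old replicate 1 outside macrophages too, at a smaller level.

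The change of C3 did not pass the test across all genes. Old over young was 2.87 ± 0.69 (log2, SE) in macrophage-like cells, 3.98 ± 0.87 in the Lyve1/Fcna, 1.97 ± 0.53 in the Clec7a/Olr1 and 2.95 ± 0.71 in the Ccl24 subset (edgeR quasi-likelihood test, adjusted p = 0.501, 0.128, 0.264 and 0.286). HFHF-old over old was -4.08, -5.64, -3.002 and -3.74 (adjusted p = 0.767, 0.164, 0.191 and 0.310). These 2 comparisons share the old rats, so the opposite signs are not independent. Without old replicate 1 the values for old over young were 1.34, 2.10, 0.71 and 1.30, and those for HFHF-old over old were -2.56, -3.81, -1.73 and -2.10. In that setting the fall with diet in Lyve1/Fcna macrophages had an adjusted p of 0.0349, with 1 rat left in each of the 2 groups and the spread taken from the 2 young rats alone.

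**Figure D3:**
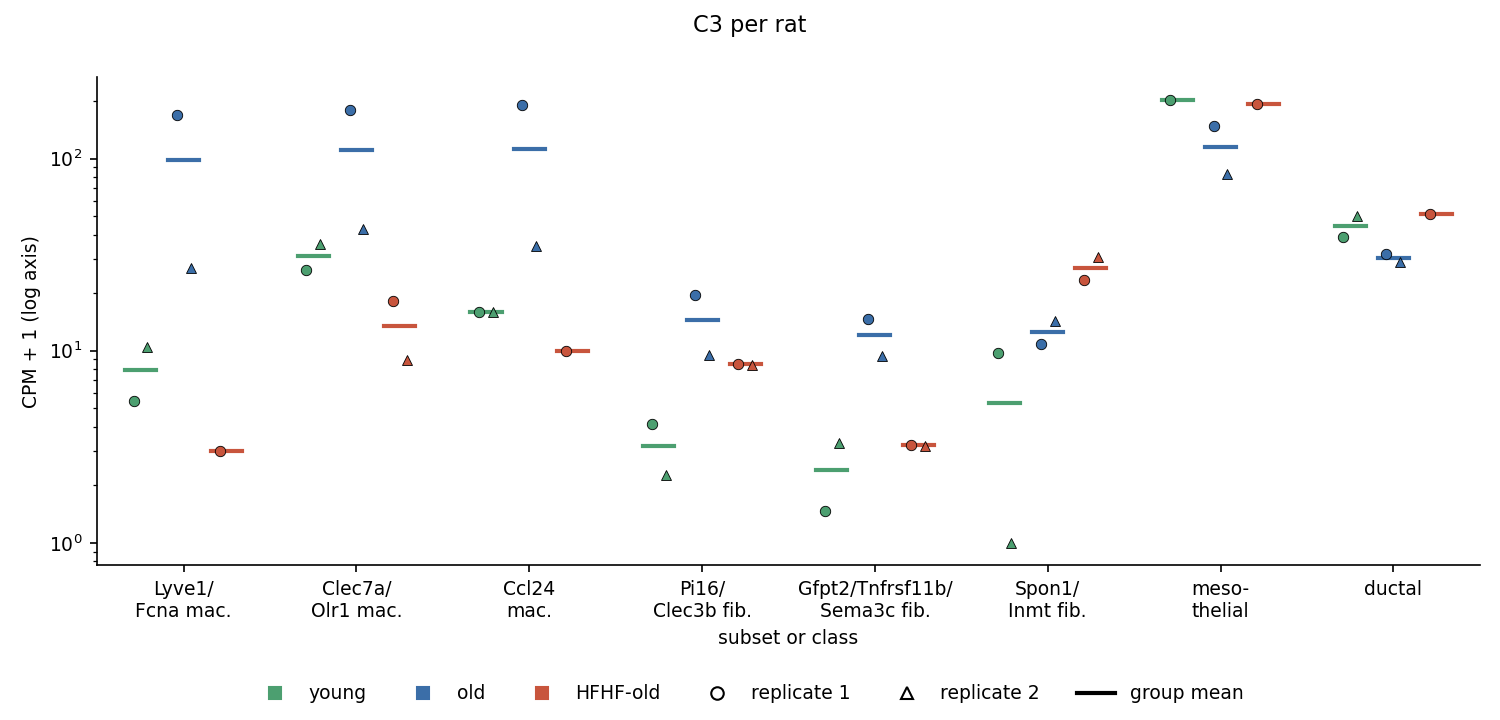
C3 in CPM plus 1, on a log axis, for each rat in the macrophage and fibroblast subsets, mesothelial-like and ductal-like cells, with circles for replicate 1 and triangles for replicate 2. Old replicate 1 is the highest rat in all 3 macrophage subsets (168.5 to 189.2), and mesothelial-like cells lie at 81.85 to 201.8 in every group.

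Among the named classes outside macrophages, C3 had its highest median level in mesothelial-like cells, the lining cells of the organ surface. Of the C3 UMIs of a library, these cells held a median of 1.173% and macrophage-like cells 30.55% (range 3.03% to 71.5%). Unnamed cells held 16.55% (range 10.1% to 78.41%), and their level is not ranked here. In mesothelial-like cells C3 was 201.8 in young replicate 1, 146.7 and 81.85 in old and 192.1 CPM in HFHF-old replicate 1, from 59, 48, 20 and 43 UMIs. It was detected in 57.14% of 28, 18.18% of 33, 24.14% of 29 and 76.92% of 13 cells. The mesothelial-like levels were 21.92 times those of fibroblast-like cells at the median (range 8.93 to 95.59) and 4.27 times those of ductal-like cells (range 2.92 to 5.27), higher in 4 of 4 rats. Ductal-like cells had 38.3 and 49.3 in young, 31.0 and 28.1 in old and 50.7 in the HFHF-old rat, a median of 46.92 times the acinar-like level. The 13 UMIs of the HFHF-old value came from 1 of 20 cells. Neutrophil-like cells, a sub-cluster led by S100a9 and S100a8, had 32.89 to 130.1, in 20 to 343 cells per rat, and their sums also held C1qa at 77.78 to 1614 CPM. By median level the order was mesothelial-like (169.4), neutrophil-like (83.82), ductal-like (38.27) and macrophage-like cells (14.84). The ranges of mesothelial-like and neutrophil-like cells overlapped, those of mesothelial-like and ductal-like cells did not, and that of macrophage-like cells reached the ductal-like and neutrophil-like ranges with old replicate 2 and the mesothelial-like range with old replicate 1.

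In fibroblast-like cells C3 was low, at 2.11 and 1.35 in young, 16.1 and 9.17 in old and 5.53 and 4.90 CPM in HFHF-old rats. The 3 groups did not overlap, and how often other genes separate them so was not counted. The young values rest on 56 and 3 UMIs. A C3 UMI was found in 0.641% to 4.872% of fibroblast-like cells per rat. Old over young was 2.73 ± 0.41 (log2, SE, edgeR quasi-likelihood test, adjusted p = 0.0781), and HFHF-old over old was -1.30 ± 0.36 (adjusted p = 0.433). The order of the groups differed between the subsets as clustered here, and the direction with diet turned in 2 of them with complement genes not held out of the clustering (HFHF-old over old -0.75 in Spon1/Inmt and 0.89 in Pi16/Clec3b fibroblasts). In Gfpt2/Tnfrsf11b/Sema3c fibroblasts C3 was 13.62 and 8.39 in old and 2.23 and 2.20 in HFHF-old rats, with 5 to 47 UMIs each. In Spon1/Inmt fibroblasts it was 9.82 and 13.27 in old and 22.39 and 29.56 in HFHF-old rats, with 9 to 61 UMIs each. Young replicate 2 had 0 C3 UMIs in the latter, which allows a level of up to 15.75 CPM. Floors and intervals cover counting error only.

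C7, a component of the terminal complex, was highest in fibroblasts. Fibroblast-like cells held a median of 81.66% of its UMIs (range 68.08% to 87.37%). The Spon1/Inmt subset had the most, 3245 and 2908 CPM in young, 4083 and 3799 in old and 4855 and 3226 in HFHF-old rats. Pi16/Clec3b fibroblasts had 1653 and 978.5, 1725 and 1566, and 1321 and 2179. In every rat the Spon1/Inmt level was higher, by a median factor of 2.40 over Pi16/Clec3b (range 1.48 to 3.68) and of 3.41 over Gfpt2/Tnfrsf11b/Sema3c fibroblasts (range 1.85 to 8.84). Earlier results of these data had named such cells by C7 together with Spon1 and Inmt, so this order is a description and not independent of that choice. Mesothelial-like cells, which matched fibroblasts for C1s and Serping1, had C7 at 3.06 to 32.7 CPM, from 1 to 8 UMIs per rat. Ductal-like cells had 14.5 to 85.7, and the ratio of fibroblast-like to ductal-like cells had a median of 36.36 (5 of 5 rats). Adipocyte-like cells, whose sums held fibroblast markers, had C7 at 271.4 to 1147 CPM. Smooth muscle-like cells had 16.33 to 362 and endothelial-like cells 32.02 to 120.

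The Gfpt2/Tnfrsf11b/Sema3c subset was where C7 differed most between the old and HFHF-old rats. It was 1214 and 714 in young, 2211 and 1382 in old and 549.1 and 639.8 CPM in HFHF-old rats. Both HFHF-old rats lay below all others, and how often other genes do so was not counted. HFHF-old over old was -1.59 ± 0.41 (log2, SE, edgeR quasi-likelihood test, adjusted p = 0.328), and DESeq2 gave this gene an adjusted p of 0.00173. In the Spon1/Inmt and Pi16/Clec3b subsets the same contrast was -0.02 and -0.06. Old over young was 0.44 and 0.36 in these subsets and 0.89 in the Gfpt2/Tnfrsf11b/Sema3c subset (adjusted p = 0.695 in the last). One sub-cluster on each side of the limit between the last-named subset and Pi16/Clec3b fibroblasts lay close to it, with 866 and 795 cells. How far the contrast with diet depends on where the limit was set was not tested. The Gfpt2/Tnfrsf11b/Sema3c sums held 1657 and 48 cells in young, 102 and 159 in old and 1402 and 533 in HFHF-old rats. Acinar markers in these sums ranged from 444.7 CPM in HFHF-old replicate 2 to 20900 in young replicate 2. Their part in the C7 values was not tested.

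**Figure D4:**
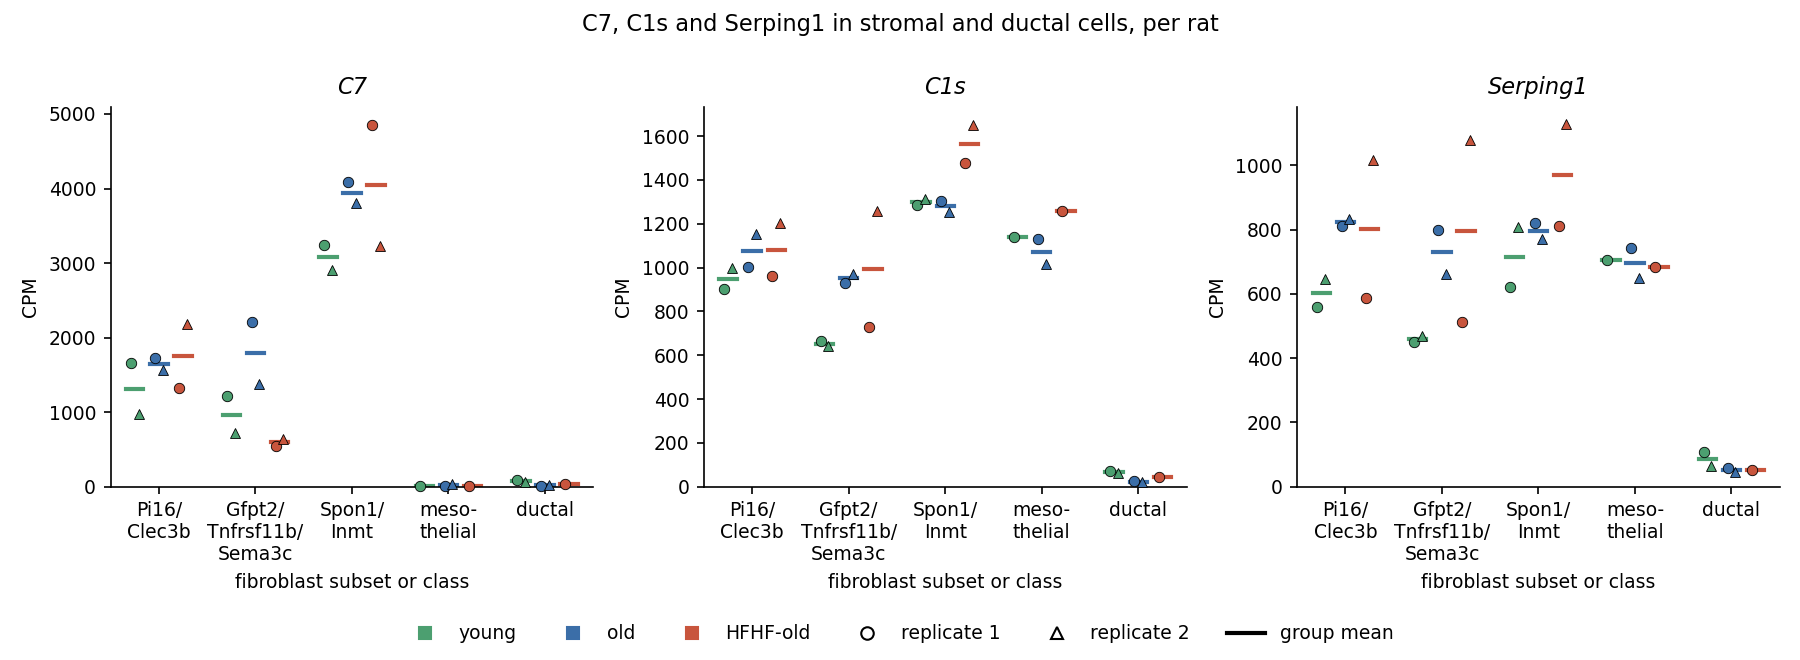
C7, C1s and Serping1 in CPM on linear axes from 0, in the 3 fibroblast subsets, mesothelial-like and ductal-like cells by group, with circles for replicate 1, triangles for replicate 2 and short lines for group means. C7 falls from the Spon1/Inmt subset to the others and is near 0 in mesothelial-like cells (3.06 to 32.7), whereas C1s and Serping1 are at like levels in fibroblast and mesothelial-like cells.

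C1s, the protease of the C1 complex, and Serping1, its inhibitor, were both highest in fibroblast-like and mesothelial-like cells and low in macrophages. Serping1 was also found in smooth muscle-like cells, at 178.3 to 411.7 CPM in 5 rats where C1s was 17.69 to 56.48, and in endocrine-like cells, at 41.14 to 87.52 where C1s was 3.096 to 17.9. Fibroblast-like cells held a median of 80.19% of the UMIs of C1s (range 56.87% to 87.62%) and 74.39% of those of Serping1 (range 32.32% to 87.49%). C1s in fibroblast-like cells was 804.3 and 954.5 CPM in young, 1068 and 1145 in old and 863.4 and 1258 in HFHF-old rats. Serping1 was 509.7 and 626.5, 813.2 and 802.6, and 560.4 and 1061. C1s thus had the higher CPM of the pair in every rat, and both were highest in HFHF-old replicate 2. In macrophage-like cells C1s was 2.62 to 24.7 and Serping1 reached at most 29.2, with 0 UMIs in HFHF-old replicate 2, which allows up to 7.868 CPM.

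Spon1/Inmt fibroblasts were the highest by median for both genes, though by less than for C7. C1s there was 1284 and 1312, 1303 and 1255, and 1478 and 1653 in the same order of rats, above the Pi16/Clec3b level in 6 of 6 rats by a median factor of 1.35. Serping1 was 621.3 and 808.3, 821.9 and 771.4, and 810.1 and 1129, above the Pi16/Clec3b level in 5 of 6 rats by a median factor of 1.11. For Serping1 the ranges of the 3 subsets overlapped. Mesothelial-like cells had C1s at 1139 in young replicate 1, 1131 and 1015 in old and 1260 in HFHF-old replicate 1, and Serping1 at 704.6, 742.6, 650.7 and 683.5. Their ratio to fibroblast-like cells was 1.24 for C1s (higher in 3 of 4 rats) and 1.07 for Serping1 (higher in 2 of 4 rats), so the 2 classes overlapped for both genes. Fibroblast markers summed to 2570 to 7768 CPM in mesothelial-like cells, below the 13250 to 38150 of fibroblasts. Ductal-like cells had C1s at 21.24 to 71.96 and Serping1 at 47.03 to 108.7.

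No change of C1s or Serping1 with age or diet passed the test in fibroblast-like cells. Both old rats lay above both young rats for each gene, and how often other genes do so was not counted. The HFHF-old values of Serping1 were 560.4 and 1061, so its value with diet averages 2 unlike rats. Old over young was 0.35 and 0.52 (log2, edgeR quasi-likelihood test, adjusted p = 0.976 and 0.951). HFHF-old over old was -0.12 and -0.06. Larger values came from ductal-like cells, where old over young was -1.80 ± 0.41 (SE) for C7 and -1.53 ± 0.35 for C1s (adjusted p = 0.0858 for both). In those sums the fibroblast markers were 3305 and 4982 CPM in young, 425.1 and 185.1 in old and 1197 in HFHF-old replicate 1, and thus moved with both genes. Their part in the result was not tested.

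Over the 10 classes and subsets and both contrasts, 158 of 160 tests of the 8 genes could be made, since C7 counts were too low in mesothelial-like cells. Of these, 1 passed the edgeR threshold, and 25 had an unadjusted p under 0.05. Subsets share cells with their class, so the tests are not independent. The share of all genes with such an unadjusted p is not given. Counts by unadjusted p, here and below, are therefore not read as an excess. DESeq2 called 13, which were C3, Cfd and C7. The one edgeR call was Cfd in mesothelial-like cells for old over young, 5.43 ± 1.25 (log2, SE, adjusted p = 0.0282), where 0.0648% of all genes tested were called. It rests on 6.84 CPM (2 UMIs) in young replicate 1 and 73.34 and 458.4 (24 and 112 UMIs) in old rats, in a fit of 4 rats with 1 residual degree of freedom, and DESeq2 gave it an adjusted p of 0.604. In the same sums C1qa was 167.6, 58.06 and 552.5 CPM and the macrophage markers summed to 355.7, 143.6 and 814.4. All 7 macrophage markers were present in the young rat and in old replicate 2, and 1 was at 0 in old replicate 1. Old replicate 2 was highest in Cfd, C1qa and the macrophage markers alike, and the part of macrophage transcripts in the call was not tested.

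In the other classes edgeR called 0 of the 8 genes. With age it called 0 in macrophage-like cells (0% of all genes called), and in the Lyve1/Fcna (0.161%), Clec7a/Olr1 (0.0826%) and Ccl24 subsets (0.0361%), where 1, 2, 1 and 2 of the 8 had an unadjusted p under 0.05 and DESeq2 called 1, 2, 1 and 2, against a DESeq2 background of 0.135%, 1.69%, 0.543% and 0.568%. With diet it called 0 in the same classes (0%, 0.11%, 0% and 0.0361% of all genes), with 1, 1, 2 and 1 at an unadjusted p under 0.05 and 1, 1, 2 and 1 called by DESeq2 (background 0.0628%, 1.15%, 0.95% and 0.406%). The genes called by DESeq2 here were C3 in each case, with Cfd as the second.

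In fibroblast-like cells and the Pi16/Clec3b, Gfpt2/Tnfrsf11b/Sema3c and Spon1/Inmt subsets edgeR likewise called 0 with age (0.00767%, 0.00819%, 0.109% and 0.83% of all genes called) and 0 with diet (0%, 0%, 0.136% and 0.0639%). With age, 1, 1, 1 and 0 of the 8 genes had an unadjusted p under 0.05, and DESeq2 called 1, 0, 0 and 0, the 1 being C3 (background 0.549%, 0.209%, 0.31% and 0.545%). With diet, 2, 0, 2 and 1 had an unadjusted p under 0.05, and DESeq2 called 0, 0, 1 and 0, the 1 being C7 (background 0.544%, 0.189%, 0.377% and 0.211%). In ductal-like cells edgeR called 0 with age (1.21% of all genes) and 0 with diet (0.39%), with 3 and 1 at an unadjusted p under 0.05, and DESeq2 called 0 in both (background 0.593% and 0.232%). In mesothelial-like cells with diet edgeR called 0 of 7 (0.243% of all genes), with 0 at an unadjusted p under 0.05 and 0 called by DESeq2 (background 0%, as with age).

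The median log2 fold change of the 8 genes for old over young was 0.20 in macrophage-like and 0.43 in fibroblast-like cells, and 0.40, 0.37 and 0.35 in the Lyve1/Fcna, Clec7a/Olr1 and Ccl24 subsets. The median of all genes tested lay between -0.008 and 0.021 in these fits. For HFHF-old over old the members' medians were -0.34, -0.01, -0.18, -0.13 and 0.04. Members and all genes are described by these medians without a test of the list.

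The other genes of the pathway also had their highest levels in different classes. Of 41 further complement genes, 39 were in the count matrices. C1r, the partner protease of C1s, was highest in Spon1/Inmt fibroblasts (median 1355 CPM, range 935.1 to 1638) and stood at 1254 in mesothelial-like cells. The receptor C5ar1 led in Ccl24 macrophages (368.5, range 333.5 to 558.6), the component C5 in ductal-like cells (394.6, range 49.53 to 516.6), and C6, which joins C7 in the terminal complex, had 279.2 in Spon1/Inmt fibroblasts.

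Few of these genes passed the test between groups. In Lyve1/Fcna macrophages 1 of 24 was called with diet, higher in the HFHF-old rat, where 0.11% of all genes were called. This was Vsig4, a macrophage receptor for C3 fragments, at 4.38 and 2.16 CPM in young, 4.29 and 4.07 in old and 101.6 in HFHF-old replicate 1 (log2 fold change 4.53 ± 0.31 SE, edgeR quasi-likelihood test, adjusted p = 0.0108). In Ccl24 macrophages Vsig4 was 2.52 and 3.15, 5.29 and 7.43, and 52.9 (adjusted p = 0.0748). Both values rest on 1 HFHF-old rat. In Clec7a/Olr1 macrophages, the subset with cells from both HFHF-old rats, Vsig4 was 19 CPM in replicate 1 and 2.64 in replicate 2 (1 UMI), against 5.78 and 4.63 in old rats. In the clustering of all cells, 2081 of the 2666 cells of one macrophage-like cluster and 760 of the 888 of another came from HFHF-old replicate 1, so its macrophages and those of the other rats lay largely in different clusters. In ductal-like cells 2 of 14 were called lower with age, where 1.21% of all genes were called. They were Cd55, which breaks up C3 convertases, and the collectin Colec12. Cd55 was 67.4 and 142.5, 12.4 and 3.03, and 116.9 CPM (log2 fold change -3.67 ± 0.58, adjusted p = 0.0126), and it was called higher with diet (3.91 ± 0.67, adjusted p = 0.0469, with 0.39% of all genes called), again against the same old rats and with 1 HFHF-old rat of 20 cells. Colec12 was 78.1 and 54.8, 13.4 and 11.4, and 35.1 (-2.45 ± 0.39, adjusted p = 0.0136). The fibroblast markers of those sums, given above, were likewise lower in old than in young rats and higher in the HFHF-old rat, and fibroblast-like cells had Cd55 at 438 to 927.7 CPM. Their part in these calls was not tested. In the other 17 comparisons 0 of 14 to 26 genes were called.

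Over 98 sums of a class and library, genes outside both lists were ranked by Pearson r of log2(CPM + 1) to each pattern, as a description, since sums of 1 library share depth and background. The mean of the C1q chains was most like Folr2 (r = 0.962), Pf4 (0.944) and Trem2 (0.932), all known from tissue macrophages, and Cfd was most like Folr2 (0.913), Pf4 (0.911) and Csf1r (0.902). C7 was most like Ddr2 (0.955), Gsn (0.954) and Ebf2 (0.954), C1s like Efemp1 (0.971), Aldh1a3 (0.965) and Gpc3 (0.961), and Serping1 like Ltbp3 (0.963), Col6a2 (0.943) and Nbl1 (0.94). C3 had no partner as close, with Phyhd1 (0.72), Tnfsf13 (0.702) and Plxnb2 (0.68) at the top. Among the members, C1s and Serping1 had r = 0.941, C7 and C1s 0.881, C7 and Serping1 0.843, and Cfd and C1qa 0.882.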

How the data were processed

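The authors deposited filtered Cell Ranger matrices of whole-number UMI counts from 6 libraries, 1 row per gene and barcode. The file headers name Cell Ranger 5.0.0, the study's methods a later version, and the submitters' processing notes name the build Rnor_6.0. The files give no coordinates.

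Barcodes with under 200 genes, over 25% mitochondrial UMIs or a gene number in the top 1% were left out, as in the study's methods. The study states more cells after its filter. Normalized log counts of 2000 variable genes, scaled and without complement genes other than Fcna, gave 10 principal components, 15 neighbours and leidenalg clusters (scanpy 1.11.5) with no batch correction. Clusters were named from marker lists (at least 3 markers and 50% at a log2 fold of 1). Macrophage-like, neutrophil-like and dendritic-like cells were clustered again together, as were fibroblasts by themselves, with genes centred per library. Their cells were then named anew by sub-cluster, and sub-clusters of 1 library were kept. Subsets were set by the mean log2 ratio of their genes (at least 4 for Lyve1/Fcna and below 0 for Clec7a/Olr1 macrophages, at least 2 for Spon1/Inmt and at least -0.5 for Pi16/Clec3b fibroblasts). Mixed sub-clusters were left out. Doublets stayed in, and 8113 barcodes most like simulated doublets were left out as an alternative.

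UMIs were summed per rat and class, a rat with fewer than 10 cells being left out, and tested with edgeR 4.0.16 (TMM, filterByExpr, glmQLFit, glmQLFTest) in 1 fit of all rats on group alone. This left 3 residual degrees of freedom with 6 rats, 2 with 5 and 1 with 4, and a group of 1 rat was assumed to vary like the others. Calls needed an adjusted p (Benjamini-Hochberg, all genes of the fit) under 0.05 with a log2 fold change beyond 0.585 in size. SE is the size of the log2 fold change over the root of its F statistic. The p-values measure the spread between these rats. DESeq2 1.42.0, RLE factors, no filter, each rat left out, a replicate block, resolution 2, complement genes not held out, at least 50 cells and ductal-like cells with an enterocyte-led cluster (added after seeing the data) were alternatives. The procedure was tested on simulated data.

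The members and lists were chosen with earlier results of these data known. Named genes were the 8 members, every further complement gene called or the highest of its role, and the 3 genes most like each pattern (sums of at least 20 cells, mean of at least 10 CPM). A result that this rule would name is not reported here. Several clusterings (joint, per library, centred and uncentred, 10 to 30 components, 3 ways of naming) were compared by markers and mixing of libraries, with no complement value looked at, and the scaling, the subset limits, the rule on mixed clusters and that on enterocyte-led clusters were set after clusters had been seen. After the members' values had been seen, ILC2-like cells were left out, whose sums held macrophage markers at 2543 to 5069 CPM, the fold changes followed across alternatives were limited to those with an unadjusted p under 0.05 and C3 in Pi16/Clec3b fibroblasts, and the letters GGAAGT were chosen after the promoters were read.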

Additional observations from a re-analysis of the deposited data

Results flagged for a closer look

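C3 had opposite signs with diet in the fibroblast subsets. The log2 fold change of HFHF-old over old was 1.12 in Spon1/Inmt fibroblasts, where both HFHF-old rats lay above both old rats in CPM. It was -0.96 in Pi16/Clec3b and -2.32 in Gfpt2/Tnfrsf11b/Sema3c fibroblasts, where the HFHF-old values were the lower ones in both rats. The Spon1/Inmt values of replicate 2 rest on 9 UMIs in 2.358% of 212 old and 10 in 6.061% of 66 HFHF-old cells. With cells thinned as above, 1.254% and 1.951% of Spon1/Inmt cells had a C3 UMI in old and 1.235% and 3.175% in HFHF-old rats. These groups overlapped, as in Pi16/Clec3b fibroblasts (1.211% and 0.5967% against 0.1222% and 0.9231%). Those of Gfpt2/Tnfrsf11b/Sema3c fibroblasts did not (1.042% and 0.6536% against 0.2149% and 0.1883%). With each rat left out, the log2 fold changes ranged from 0.76 to 1.32 in Spon1/Inmt fibroblasts. They ranged from -1.42 (without old replicate 2) to -0.37 (without old replicate 1) in Pi16/Clec3b and from -2.54 to -1.94 in Gfpt2/Tnfrsf11b/Sema3c fibroblasts. With complement genes not held out of the clustering, the value was -0.75 in Spon1/Inmt and 0.89 in Pi16/Clec3b fibroblasts, so both signs turned. The difference between subsets was not tested, none of the 3 values passed the edgeR threshold, and the sums held 5 to 140 C3 UMIs per rat in the old and HFHF-old groups.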

How the results depend on the processing

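Of 254 recounts of members called, 209 gave the same count. DESeq2 called 1 in macrophage-like cells in both contrasts (C3), 2 with age (C3, Cfd) and 1 with diet (C3) in Lyve1/Fcna and Ccl24 macrophages, 1 and 2 in Clec7a/Olr1 macrophages, 1 in fibroblast-like cells with age (C3), 1 in the Gfpt2/Tnfrsf11b/Sema3c subset with diet (C7) and 0 in mesothelial-like cells with age. Its scaling moved the median of all genes by 0.215 in macrophage-like cells, 0.12 in the Clec7a/Olr1 and -0.136 in the Gfpt2/Tnfrsf11b/Sema3c subset with diet. Without the filter, edgeR called 2 and 1 in Lyve1/Fcna, 1 and 2 in Clec7a/Olr1 and 2 and 1 in Ccl24 macrophages, 1 (C3) and 3 (the C1q chains) in fibroblast-like cells, 1 (C3) and 1 (C1qb) in Pi16/Clec3b fibroblasts, 1 (C3) in the Gfpt2/Tnfrsf11b/Sema3c subset with age, 1 (C1qb) in Spon1/Inmt fibroblasts with diet, and 2 (C7, C1s) and 1 (C1qc) in ductal-like cells. Calls over all genes rose too. With age and diet they were 1013 and 878 of 19558 genes in Lyve1/Fcna, 482 and 721 of 18220 in Clec7a/Olr1 and 470 and 702 of 18494 in Ccl24 macrophages, 367 and 401 of 21134 in fibroblast-like cells, 173 and 188 of 20110 in Pi16/Clec3b fibroblasts, 201 of 19384 in the Gfpt2/Tnfrsf11b/Sema3c subset with age, 248 of 17072 in Spon1/Inmt fibroblasts with diet and 331 and 210 of 16349 in ductal-like cells. With the replicate block 2 and 1 were called in Lyve1/Fcna macrophages and 1 (C7) in ductal-like cells with age, where 443 and 187 of 11791 and 209 of 10004 genes were called. Deviations of rats with the same replicate number correlated at -0.187 to 0.195, not above 0.1 in every pair. With 2 rats per group this cannot tell whether rats of the same number shared a batch, and the main fits hold no pairing. Without doublets 1 (C3) was called in fibroblast-like cells with age (20 of 12989 genes). With complement genes not held out, 1 (C3) was called in Clec7a/Olr1 macrophages in each contrast (132 and 29 of 9833 genes).

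With each rat left out, counts ranged from 0 to 1 in Lyve1/Fcna and Ccl24 macrophages in both contrasts (C3 without old replicate 2 in either subset, and in Lyve1/Fcna macrophages with diet also without old replicate 1). They ranged from 0 to 1 in fibroblast-like cells with age (C3 without either HFHF-old rat) and from 0 to 3 with diet (the C1q chains without HFHF-old replicate 1). With diet they ranged from 0 to 4 in the Gfpt2/Tnfrsf11b/Sema3c subset (the C1q chains and Cfd without HFHF-old replicate 1) and from 0 to 3 in Spon1/Inmt fibroblasts (C1qa without HFHF-old replicate 1, the C1q chains without HFHF-old replicate 2). In ductal-like cells with age they ranged from 0 to 1 (C1qa without young replicate 1, C7 without young replicate 2 or old replicate 2), and in mesothelial-like cells, where only HFHF-old replicate 1 could be left out, the count stayed at 1. The fits that called members also called more genes in all than the fits of all rats in most cases, such as 155 of 12605 in Lyve1/Fcna macrophages with diet without old replicate 1, and without HFHF-old replicate 1 with diet 18 of 13542 in fibroblast-like cells, 58 of 9249 in the Gfpt2/Tnfrsf11b/Sema3c and 62 of 9205 in the Spon1/Inmt subset. With at least 50 cells per rat, 17 comparisons could be fitted, with 0 members called.

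Of 334 recomputed fold changes of 26 results, 284 kept direction and side of the threshold, 44 came to pass it, 1 ceased to and 5 reversed. With complement genes not held out, HFHF-old over old was -0.39 for Cfd in Clec7a/Olr1 macrophages, 0.89 for C3 in Pi16/Clec3b and -0.75 for C3 in Spon1/Inmt fibroblasts, so the directions of C3 in these subsets depend on the clustering. C1qc in ductal-like cells with diet was -1.85 in the main fit, 0.56 without doublets and 0.92 with the enterocyte-led cluster. The cause was not tested. No ductal-like class formed with complement genes not held out, and mesothelial-like cells could not be fitted with the block or without doublets. Small classes and 1 or 2 rats per group limit every contrast.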
